A study of Mus musculus with 6 samples.

Results

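The expression of 6 genes encoding effector and exhaustion transcription factors (Batf, Irf4, Maf, Prdm1, Tox and Bhlhe40) was examined in single T cells from mouse melanomas. They were taken by name, and all 6 were found among the 14597 genes of the count table. TCRβ+ T cells had been sorted from subcutaneous tumors of B16-F10, a melanoma line of mouse origin. The hosts were Foxp3-EGFP-DTR mice, in which the endogenous Foxp3 gene drives a diphtheria toxin receptor and EGFP, so that diphtheria toxin (DTx) removes Foxp3+ regulatory T (Treg) cells. All animals carried this allele and a tumor, and they differed in receiving PBS (3 samples) or DTx (3 samples). The study's experiments used adult mice of both sexes. The table holds 12818 cells from 6 libraries numbered 1 to 6, and no label ties a library number to PBS or DTx. The libraries are therefore described individually, they are not replicates of a group, and nothing below compares PBS with DTx.

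BATF is a basic leucine zipper factor that pairs with JUN proteins and binds DNA together with IRF4 in activated T cells. MAF is a leucine zipper factor known for driving Il10 and type 2 cytokine transcription, and PRDM1 (BLIMP-1) is a repressor associated with terminal effector differentiation. TOX is an HMG-box protein required for the exhausted state of CD8+ T cells, and BHLHE40 is a basic helix-loop-helix repressor linked to cytokine production in effector T cells.

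In the mouse genome build GRCm38 (GENCODE vM21), Batf lies at chr12:85686669-85709087 on the plus strand, Irf4 at chr13:30749226-30766976 (plus), Maf at chr8:115682942-115707794 (minus), Prdm1 at chr10:44437177-44528501 (minus), Tox at chr4:6686353-6991557 (minus) and Bhlhe40 at chr6:108660629-108666925 (plus). Tox overlaps the antisense gene Gm11802, and Bhlhe40 overlaps 0610040F04Rik at its start. Since AP-1 and IRF proteins are among the 6, the 250 bases before the RefSeq transcript start were searched on both strands for their binding letters in RefSeq promoters of GRCm38.p6, which held 3 of the 6 genes (Batf, Irf4 and Prdm1). For Prdm1 that start lies inside the GENCODE gene, downstream of its outermost start, and the Batf and Irf4 windows run past the GENCODE gene start. The AP-1 letters TGANTCA were found only in the Prdm1 window, 48 bases before that RefSeq start, and in 6.73% of the 32544 promoters searched. The search took any base at N and did not require C or G there, and the Prdm1 match, TGAATCA, holds A. The window is shown because Prdm1 is the member with this match, in lower case with the match in capitals, at chr10:44458749-44458998 on the minus strand.

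Prdm1: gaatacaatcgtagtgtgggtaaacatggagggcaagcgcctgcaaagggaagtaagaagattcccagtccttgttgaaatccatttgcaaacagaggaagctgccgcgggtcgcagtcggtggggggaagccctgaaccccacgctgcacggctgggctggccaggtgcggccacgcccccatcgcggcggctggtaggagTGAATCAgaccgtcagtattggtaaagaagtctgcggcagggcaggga

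None of the 3 windows held the CRE letters TGACGTCA (1.55% of promoters), the IRF pair of GAAA, any 2 bases and GAAA (2.98%), the E-box CACGTG (6.03%) or the AP-1 and IRF composite, TTTC or GAAA any 4 bases before or after TGANTCA (0.0983%), which contains the AP-1 letters. The short NFAT core GGAAA (55.7% of promoters) occurred 2 times in Batf and in neither of the others. GAAAG, part of PRDM1 sites (51.6% of promoters), occurred 3 times in Batf and 2 times in Irf4. These matches describe letters in a window and were not tied to binding.

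The pool held 21816565 UMIs, from 1916305 to 5127776 per library, and the median depth per cell ran from 610 UMIs in library 3 to 2499.5 in library 4. T cell markers were detected in 96.0% of cells. Of the marker lists of other cell types, 4 of 7 myeloid genes had UMIs (14.7% of cells, with 2178 UMIs of Cst3 and 177 of Cd68), as did 2 of 3 stromal genes (4.51%, with 603 of Pecam1), 3 of 3 NK cell genes (2.93%, with 346 of Klre1 and 174 of Klrb1c), 2 of 4 B cell genes (1.33%, with 172 of Cd79b) and 4 of 4 melanoma genes (0.140%). Ms4a1, Lyz2, C1qa, C1qb and Col3a1 had 0 UMIs. There were 76 barcodes found in more than 1 library, covering 152 cells. Cells were gated by UMIs: 4497 CD8 cells (Cd8a or Cd8b1, no Cd4 or Foxp3), 1205 CD4 Tconv cells (Cd4, no Cd8 or Foxp3) and 97 Foxp3+ cells (Foxp3, no Cd8), with 6838 cells carrying no gating UMI. Levels are UMIs per 10,000 UMIs with exact Poisson 95% intervals. Populations were compared by a rate ratio within strata of library and depth quartile, given with its 95% counting interval. These intervals cover counting error only, since cells of a library are not replicates. As UMIs of 1 cell are not independent, they are too narrow. All levels are per total UMIs and not per transcript length, so they are compared between cells and not between genes.

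Each of the 6 genes varied between libraries by more than counting error, and they shared no single order. Libraries 4 to 6 were highest for Batf and Bhlhe40 and libraries 1 to 3 for Tox, while Maf, Irf4 and Prdm1 followed neither split. Batf was present at 1.08, 0.777, 1.22, 2.0, 2.13 and 1.81 UMIs per 10,000 in libraries 1 to 6. Bhlhe40 stood at 5.48, 0.824, 6.40, 11.5, 11.4 and 9.61 in the same order. For both genes the intervals of libraries 4, 5 and 6 lay above those of libraries 1, 2 and 3, and library 2 was lowest.

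Tox was present at 0.586, 0.462 and 0.537 UMIs per 10,000 in libraries 1, 2 and 3 and at 0.240, 0.183 and 0.185 in libraries 4, 5 and 6. Its intervals in libraries 1 to 3 all lay above those in libraries 4 to 6, the opposite order to Batf and Bhlhe40. With every cell thinned to 1000 UMIs, Tox stood at 0.567, 0.479, 0.726, 0.304, 0.186 and 0.177, and the point values kept that separation although the intervals of libraries 2 and 4 then touched. The same order was seen within CD8 cells, where Tox was at 0.557, 0.412, 0.890, 0.233, 0.249 and 0.208 UMIs per 10,000. Libraries 1 to 3 also held more cells of a naive gate (UMIs of at least 2 markers of naive T cells, among them Ccr7, Lef1 and Igfbp4), with 437, 1118 and 254 such cells against 46, 54 and 29 in libraries 4 to 6, and the part of this in the Tox levels was not tested.

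Maf was present at 1.62, 0.311, 1.30, 1.10, 0.899 and 0.958 UMIs per 10,000 in libraries 1 to 6, Prdm1 at 0.20, 0.0377, 0.167, 0.332, 0.271 and 0.151, and Irf4 at 0.458, 0.270, 0.391, 0.415, 0.488 and 0.350. Library 2 was lowest for all 3 of these genes. The highest library was 1.80-fold above the lowest for Irf4 and 13.9-fold for Bhlhe40. With cells thinned to 500 UMIs these were 3.58-fold and 18.8-fold. Depth differed between the libraries, so detection is compared after thinning: Bhlhe40 was detected in 5.19% of cells of library 2 and in 57.7% of library 5 at 1000 UMIs per cell, and Prdm1 in 0.332% and 2.81%.

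**Figure D1:**
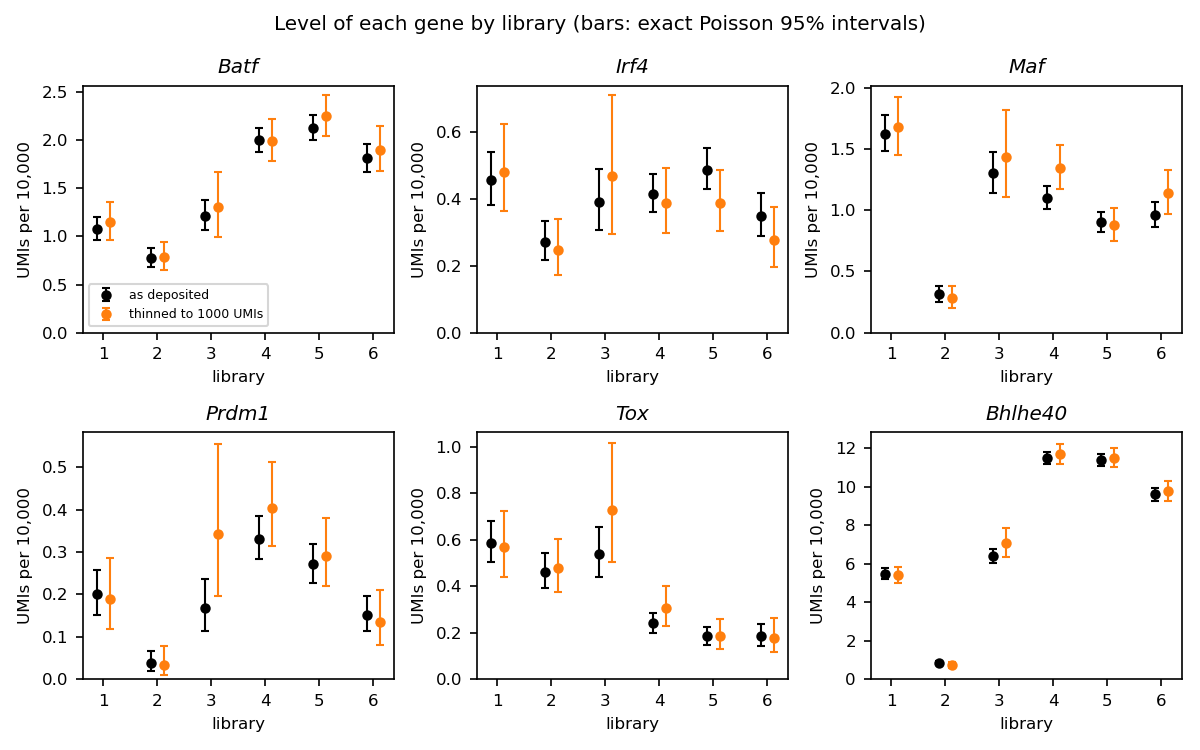
UMIs per 10,000 (y axis) of each gene in libraries 1 to 6 (x axis), with exact Poisson 95% intervals, as deposited (black) and with each cell thinned to 1000 UMIs (orange, cells under 1000 UMIs left out). Batf and Bhlhe40 were highest in libraries 4 to 6 and Tox in libraries 1 to 3, and library 2 was low for all genes other than Tox.

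The lineage of a cell was associated with a large difference in Maf. Maf stood at 1.87 UMIs per 10,000 (1.71 to 2.04) in CD4 Tconv cells and at 0.324 (0.289 to 0.361) in CD8 cells. In libraries 1 to 6 the CD4 Tconv levels were 2.96, 0.505, 2.11, 2.0, 1.80 and 1.5, and the CD8 levels 0.510, 0.0610, 0.890, 0.314, 0.229 and 0.383. Maf was thus lower in CD8 than in CD4 Tconv cells of every library, and the matched ratio was 0.175 (0.151 to 0.203). Over 13 other settings it lay between 0.149 and 0.209.

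Batf and Bhlhe40 were also lower in CD8 cells, by less. Bhlhe40 stood at 11.2 UMIs per 10,000 in CD4 Tconv and 7.74 in CD8 cells, with a ratio of 0.763 (0.731 to 0.797) and lower values in 6 of 6 libraries. Batf stood at 2.21 and 1.40, with a ratio of 0.679 (0.615 to 0.75), but it was lower in only 4 of 6 libraries. For Irf4 (1.01, 0.818 to 1.26), Prdm1 (0.958, 0.729 to 1.26) and Tox (1.11, 0.857 to 1.44) the interval of the CD8 to CD4 ratio included 1. In all, 3 of the 6 lay below 1 and 0 above, where 17% of the 7504 genes with at least 100 UMIs lay below and 9.86% above. NK cell markers moved with this comparison, at 0.335 UMIs per 10,000 in CD8 and 0.0115 in CD4 Tconv cells, and without cells holding a marker of another cell type the Maf ratio was 0.159 (0.132 to 0.193) and that of Tox 1.43 (1.01 to 2.03), above 1.

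Foxp3+ cells carried more Maf than CD4 Tconv cells of the same libraries. The 97 Foxp3+ cells came mainly from libraries 1, 2 and 3 (49, 30 and 17 cells), with 1 cell in library 6. Maf was found in 42 of them (43.3%, exact 95% interval 33.3 to 53.7, median depth 1532 UMIs). In libraries 1 to 3 it was found in 61.2%, 16.7% and 35.3% of Foxp3+ cells, against 26.2%, 5.96% and 16.3% of CD4 Tconv cells and 3.66%, 1.43% and 1.57% of cells in the naive gate. Its level was 5.70, 2.07 and 2.67 UMIs per 10,000 in the Foxp3+ cells of libraries 1 to 3, against 2.96, 0.505 and 2.11 in CD4 Tconv cells. The matched ratio was 1.83 (1.36 to 2.45), though in library 3 alone it was 1.05 (0.492 to 2.25). Bhlhe40 had a ratio of 1.35 (1.12 to 1.63). These were 2 of the 6 genes above 1, where 13.5% of the 1093 genes with at least 100 UMIs were. Batf (1.24, 0.813 to 1.89), Irf4 (1.22, 0.571 to 2.6), Prdm1 (2.06, 0.650 to 6.52) and Tox (1.24, 0.667 to 2.32) had intervals that included 1, on 34, 11, 6 and 17 UMIs in Foxp3+ cells, and 0 lay below 1, where 10.3% of genes did. Differences in these 4 genes were not detectable at this depth. The Bhlhe40 result depended on matching by library: without strata its ratio was 0.793, and it was 1.17 (0.923 to 1.48) without cells holding a marker of another cell type and 1.28 (0.917 to 1.80) without library 1. Without library 1, on 48 Foxp3+ cells, Batf (2.0, 1.06 to 3.80) and Tox (3.0, 1.17 to 7.66) had intervals above 1, and Maf stood at 1.78 (1.01 to 3.13).

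**Figure D2:**
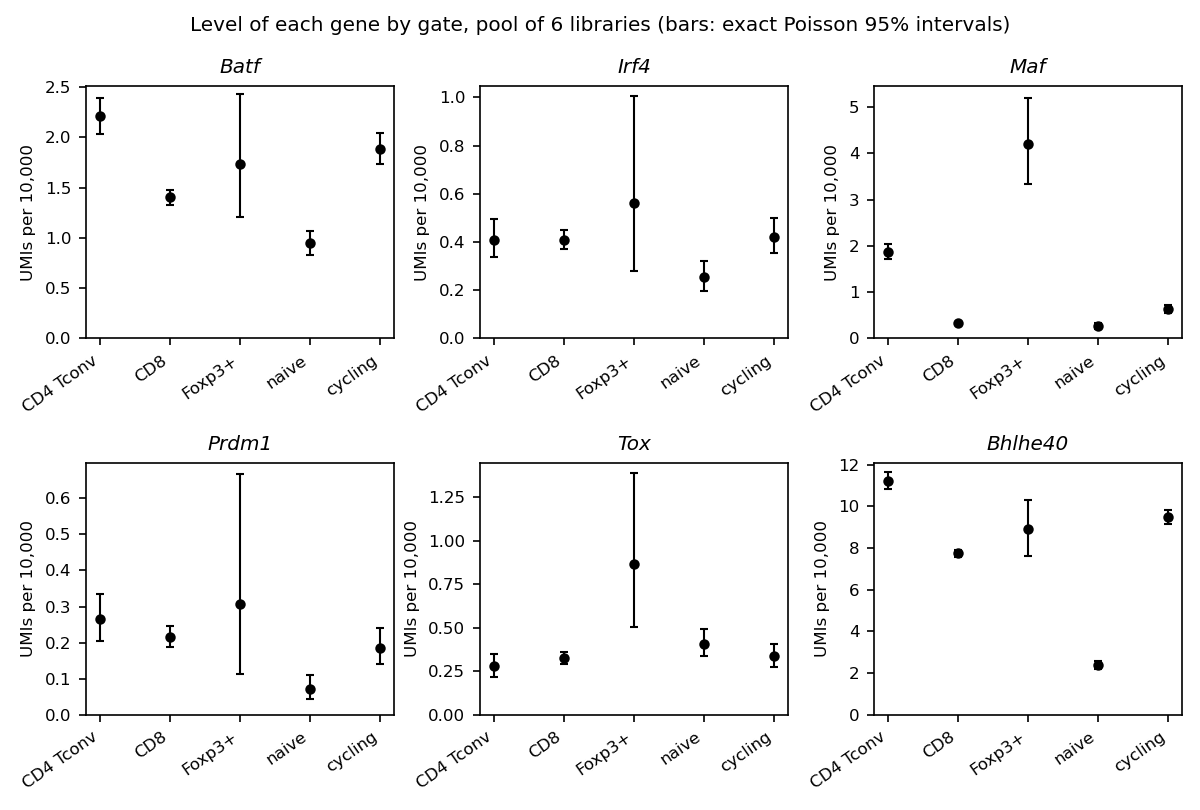
UMIs per 10,000 (y axis) of each gene in 5 gates (x axis) over the pool of 6 libraries, with exact Poisson 95% intervals and with no matching for library or depth. Maf stands at 4.19 in Foxp3+, 1.87 in CD4 Tconv and 0.324 in CD8 cells, and Bhlhe40 at 2.37 in the naive gate against 7.74 to 11.2 in the 3 lineage gates.

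Pdcd1 encodes the inhibitory receptor PD-1, which marks activated and exhausted T cells. Detection of Pdcd1 favors deep cells: in the CD8 gate the 813 cells with a Pdcd1 UMI had a median of 2889 UMIs and the 3684 cells without had 1558.5. Strata holding cells of both kinds covered all Pdcd1+ and 3462 of the Pdcd1- CD8 cells. Within these strata, Tox had the largest ratio of the 6 genes in Pdcd1+ CD8 cells. Tox was at 1.16, 0.675, 1.22, 0.283, 0.367 and 0.326 UMIs per 10,000 in the Pdcd1+ CD8 cells of libraries 1 to 6, and at 0.425, 0.406, 0.782, 0.207, 0.186 and 0.158 in the Pdcd1- CD8 cells. The Pdcd1+ value was the higher of the pair in each of the 6 libraries, though library 2 held only 9 Pdcd1+ CD8 cells. The matched ratio was 1.90 (1.46 to 2.45), on 116 UMIs found against 60.2 expected. It lay between 1.5 and 2.45 over 16 other settings, with the interval above 1 in 16 of 16. Requiring at least 2 Pdcd1 UMIs gave 2.45 (1.81 to 3.33), leaving out the naive gate 1.93 (1.47 to 2.52) and leaving out cells with a cell cycle transcript 2.0 (1.43 to 2.78).

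**Figure D3:**
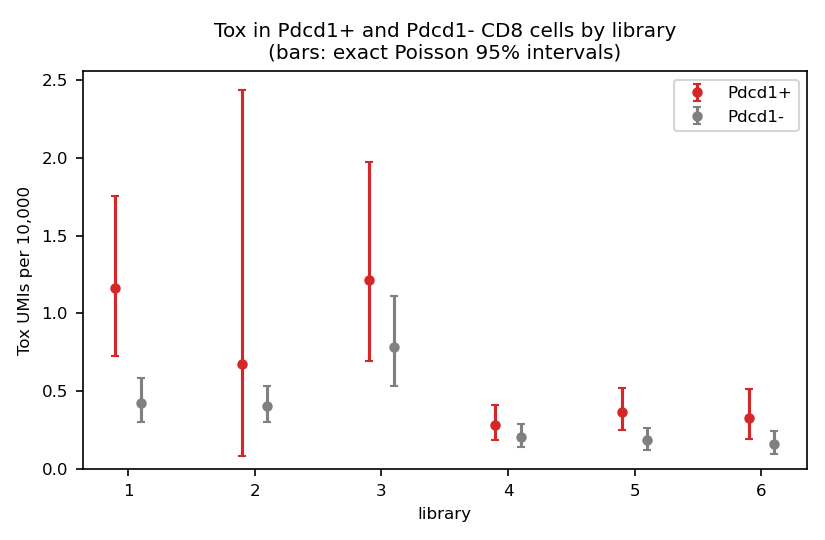
Tox UMIs per 10,000 (y axis) in Pdcd1+ (red) and Pdcd1- (grey) CD8 cells of libraries 1 to 6 (x axis), with exact Poisson 95% intervals. The red point is above the grey point in each library, and both are lower in libraries 4 to 6.

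Batf, Bhlhe40 and Prdm1 also had ratios above 1 in Pdcd1+ CD8 cells. Bhlhe40 stood at 10.8 UMIs per 10,000 in Pdcd1+ and 6.78 in Pdcd1- CD8 cells, and its matched ratio was 1.28 (1.22 to 1.34), above 1 in each of the 5 libraries where both sides held 20 cells or more. Batf stood at 1.87 and 1.24, with a ratio of 1.28 (1.14 to 1.44) and higher values in 4 of 5 libraries. Prdm1 stood at 0.297 and 0.190, with a ratio of 1.42 (1.07 to 1.89). The Prdm1 interval reached 1 without library 1 (1.35, 0.993 to 1.83) or library 5 (1.30, 0.910 to 1.85), and after thinning to 1000 UMIs the ratio was 0.737 (0.336 to 1.62). Irf4 (1.07, 0.853 to 1.33) and Maf (1.04, 0.809 to 1.33) had intervals that included 1. Thus 4 of the 6 genes lay above 1 and 0 below, where 13.3% of 6769 genes lay above and 3.89% below.

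Other transcription factors of Pdcd1+ CD8 cells are given from lists chosen by function. Of 9 stem and naive factors with at least 100 UMIs, 6 lay below 1 and 0 above, among them Id3 (0.420, 0.308 to 0.573), Klf2 (0.573, 0.520 to 0.630) and Tcf7 (0.588, 0.473 to 0.732), the last encoding TCF1, which maintains naive and stem-like T cells. Of 11 effector factors, 7 lay above 1 and 1 below (Id2, 0.902). Those at or past 1.5-fold were Ikzf2 (1.68), Tbx21 (1.51) and Stat3 (1.5). Among AP-1 and IRF partners 3 of 14 lay above and 5 below: Fosl2 stood at 1.48 (1.26 to 1.75) and Atf3 at 1.43 (1.02 to 1.99), Jun (0.673, 0.623 to 0.727) and Fos (0.657, 0.586 to 0.737) were lower, and Junb stood at 1.0 (0.966 to 1.04). Of the NFAT, NR4A and TOX family, 3 of 8 lay above (Nr4a2 1.5, Nr4a3 1.47 and Nr4a1 1.25) and 2 below. Of 9 checkpoint receptors and exhaustion markers, 7 lay above and 0 below, with Rgs16 (2.08), Lag3 (1.68) and Havcr2 (1.60) highest. Of 11 effector products, 3 lay above and 4 below, with Il4 (0.596) and Csf2 (0.589) lowest. The list medians on the log2 scale were -0.43, 0.40, 0.02, 0.04, 0.45 and 0.09 in this order, where the median of all genes was 0.08.

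In CD4 Tconv cells the pattern was carried by Batf and Bhlhe40. Batf stood at 2.98 UMIs per 10,000 in the 206 Pdcd1+ and 1.97 in the 961 Pdcd1- cells of the same strata, with a matched ratio of 1.36 (1.14 to 1.62). Bhlhe40 stood at 13.5 and 10.6, with a ratio of 1.22 (1.12 to 1.32), and both genes were higher in all 3 libraries where both sides held 20 cells or more. Without library 4 the Batf interval included 1 (1.23, 0.975 to 1.56) and that of Maf lay below 1 (0.679, 0.499 to 0.924). Tox stood at 0.286 and 0.281 UMIs per 10,000, with a ratio of 1.17 (0.681 to 2.02) on 19 UMIs. Irf4, Maf and Prdm1 also had intervals that included 1, with ratios of 0.972, 0.832 and 1.09. The 2 of 6 genes above 1 compare with 8.4% of 3144 genes above and 5.79% below.

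The difference between the lineages was computed for each gene as the Pdcd1 ratio in CD8 cells divided by that in CD4 Tconv cells. It was 1.62 (0.886 to 2.95) for Tox and from 0.940 for Batf to 1.30 for Prdm1 for the others, and the interval included 1 for all 6 genes. A difference between CD8 and CD4 Tconv cells in the Pdcd1 ratio was therefore not detectable at this depth, including for Tox.

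Over all 12818 cells, including those with no gating UMI, the ratio in the 1519 Pdcd1+ cells was 1.86 (1.55 to 2.23) for Tox, 1.32 (1.07 to 1.63) for Prdm1, 1.31 (1.27 to 1.35) for Bhlhe40 and 1.29 (1.19 to 1.39) for Batf. Tox, Batf and Bhlhe40 were higher in 6 of 6 libraries. Irf4 (1.04, 0.882 to 1.23) and Maf (0.974, 0.875 to 1.08) had intervals around 1. Without library 1 (1.25, 0.999 to 1.57) or library 5 (1.22, 0.941 to 1.58) the Prdm1 interval included 1. Against these 4 of 6 genes above 1 and 0 below, 14.3% of 8765 genes lay above 1 and 4.48% below. Transcripts of the myeloid list, of which Cst3 gave 2178 of 2415 UMIs, stood at 1.55 UMIs per 10,000 in Pdcd1+ and 0.989 in Pdcd1- cells. In CD8 cells without a marker of another cell type the ratios were 1.84 (1.30 to 2.62) for Tox, 1.35 (1.15 to 1.59) for Batf and 1.27 (1.19 to 1.36) for Bhlhe40, while that of Prdm1 was 1.44 (0.977 to 2.12).

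**Figure D4:**
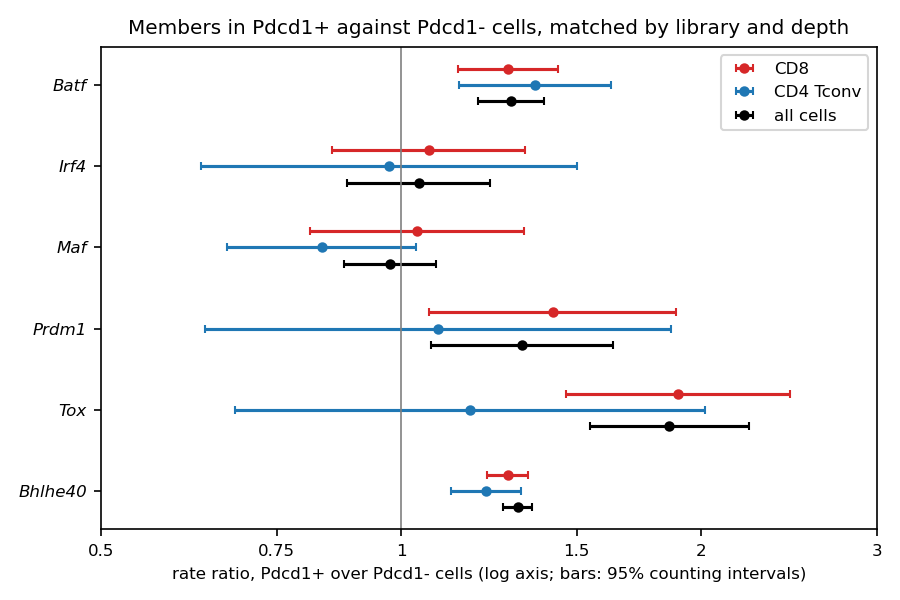
Rate ratio of each gene in Pdcd1+ over Pdcd1- cells (x axis, log scale), matched by library and depth quartile, in CD8 (red), CD4 Tconv (blue) and all cells (black), with 95% counting intervals. Tox has the highest ratio in CD8 (1.90) and in all cells (1.86), and the Irf4 and Maf intervals cross 1 throughout.

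The number of checkpoint transcripts per cell was also used, a split chosen after the data had been seen. CD8 cells, gated on counts thinned to 1000 UMIs, were divided by how many of Pdcd1, Havcr2, Lag3 and Tigit they held. Tox stood at 0.326 UMIs per 10,000 (0.256 to 0.410) in the 2237 cells with none, 0.452 (0.303 to 0.649) in the 642 cells with 1 and 0.979 (0.535 to 1.64) in the 143 cells with 2 or more. Batf stood at 1.18, 1.70 and 2.38 in the same order, and Bhlhe40 at 5.65, 9.84 and 12.1. The intervals of Tox, Batf and Bhlhe40 in cells with 2 or more lay above those in cells with none. Irf4 (0.340, 0.483 and 0.0699) and Prdm1 (0.201, 0.327 and 0.140) did not follow this order, and the last of these values rest on 1 and 2 UMIs. Maf stood at 0.295 (0.228 to 0.375), 0.452 (0.303 to 0.649) and 0.490 (0.197 to 1.01), with overlapping intervals and the last on 7 UMIs. Tox was detected in 9.79% (5.46 to 15.9) of the cells with 2 or more checkpoint transcripts and in 3.13% (2.45 to 3.94) of those with none. Cells of a naive gate set on the same thinned counts gave 4.44%. These values were not matched by library.

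The naive gate served as the population in which the effector factors should be scarce. Its 1938 cells had a median of 1113.5 UMIs, against 1290 in the other cells. Maf had a ratio of 0.300 (0.236 to 0.382), Prdm1 0.556 (0.339 to 0.910), Bhlhe40 0.567 (0.524 to 0.614), Irf4 0.622 (0.471 to 0.821) and Batf 0.820 (0.711 to 0.946) in naive gate cells. Maf, Irf4 and Bhlhe40 were lower in 6 of 6 libraries. Tox was the exception, at 0.889 (0.702 to 1.12), and without library 2, which held 1118 of the naive gate cells, it stood at 0.679 (0.485 to 0.949). The Prdm1 interval included 1 without library 1 (0.557), 3 (0.631) or 4 (0.604). These 5 of 6 genes below 1 and 0 above compare with 15.9% and 6.01% of 8732 genes.

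At 1000 UMIs per cell, the gates were set anew on the thinned counts and held 766 naive gate, 3022 CD8 and 537 CD4 Tconv cells. This naive gate is another set of cells, with Bhlhe40 at 0.574 UMIs per 10,000 against 2.37 in the gate before thinning. Bhlhe40 was detected in 4.18% of these naive gate cells against 37.9% of CD8 and 52.9% of CD4 Tconv cells, and Maf in 1.44% against 3.11% and 13.8%. Batf was detected in 6.40% against 11.9% and 15.3%. Tox was detected in 4.44% (3.09 to 6.15) of naive gate cells, 3.64% (3.0 to 4.37) of CD8 and 2.42% (1.30 to 4.10) of CD4 Tconv cells. These shares are pooled and not matched by library, and before thinning 1118 of the 1938 naive gate cells came from library 2. By library and before thinning, Tox stood at 0.309, 0.507, 0.546, 0.107, 0.238 and 0.119 UMIs per 10,000 in naive gate cells. It stood at 0.557, 0.412, 0.890, 0.233, 0.249 and 0.208 in CD8 cells of libraries 1 to 6. CD8 cells had the higher value in 5 of 6 libraries, library 2 being the exception, and the intervals overlapped in each library. Bhlhe40 stood at 2.40, 0.467, 2.93, 8.23, 7.89 and 7.98 in naive gate cells and at 4.21, 0.641, 5.57, 9.98, 10.3 and 8.77 in CD8 cells of the same libraries. A cell can lie in both gates. In the gates set before thinning, at median depths of 1113.5, 1708 and 1622 UMIs, the Tox shares were 5.31%, 6.14% and 5.39%.

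Cycling cells (UMIs of at least 2 of Mki67, Top2a, Ccna2, Birc5 and Cdk1) differed from cells with none of these in Tox and Maf. Tox had a ratio of 1.65 (1.29 to 2.11) in the 744 cycling cells and was higher in each of the 5 libraries where both sides held 20 cells or more. Maf had a ratio of 0.648 (0.551 to 0.762) and was lower in 5 of 5. Bhlhe40 stood at 0.927 (0.886 to 0.970) and at 0.954 (0.906 to 1.0) without library 6, and Batf, Irf4 and Prdm1 had intervals that included 1. Thus 1 of 6 genes lay above 1 and 2 below, against 21% and 16.9% of 8232 genes. Depth differed most in this comparison, at medians of 4029.5 and 1160 UMIs, and without cells holding a marker of another cell type the Tox ratio was 1.38 (0.948 to 2.01).

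Cells were next split by transcripts of cytokines and effector molecules, and Maf and Batf were highest with Il10 and Il13. These splits, and those by Ccr8, Lag3 and Havcr2 below, took cells of all lineages and were matched by library and depth only. Il10, which encodes an inhibitory cytokine, was detected in 68 cells, and Maf was found in 36 of these. The Maf ratio in Il10+ cells was 3.56 (2.85 to 4.43), that of Batf 2.33 (1.91 to 2.84) and that of Prdm1 2.04 (1.14 to 3.63). The number of Il10+ cells with a Maf UMI was 6 of 8, 0 of 1, 8 of 16, 14 of 28, 5 of 8 and 3 of 7 in libraries 1 to 6. Read from the other side, Il10 was detected in 2.35% (1.65 to 3.23) of Maf+ cells and 0.284% (0.194 to 0.400) of Maf- cells. The Batf ratio was 0.698, 0, 2.81, 2.35, 3.65 and 0.257 in libraries 1 to 6, on 2, 0, 10, 61, 30 and 1 Batf UMIs in Il10+ cells, so that it lay above 1 in libraries 3, 4 and 5 and below 1 in the others. The UMIs were concentrated, since 5 of the Il10+ cells held 41 of the 86 Maf UMIs and 5 held 57 of the 104 Batf UMIs. The Prdm1 interval included 1 without library 1 (1.67) or library 6 (1.77). These 3 of 6 genes above 1 and 0 below compare with 8.95% and 3.37% of 8037 genes.

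In the 195 cells with Il13, a type 2 cytokine gene, Maf had a ratio of 2.04 (1.69 to 2.46), Batf 1.91 (1.68 to 2.16), Prdm1 1.49 (1.01 to 2.21) and Bhlhe40 1.15 (1.08 to 1.23), so that 4 of 6 genes lay above 1 and 0 below, against 12.2% and 9.9% of genes. Without library 4 the intervals of Prdm1 (0.999, 0.465 to 2.15) and Bhlhe40 (1.02, 0.921 to 1.14) included 1, and without library 5 that of Prdm1 (1.54, 0.978 to 2.43). Tox stood at 0.995 (0.599 to 1.65). In the 581 cells with Ccr8, a chemokine receptor gene of Treg and type 2 cells, Maf (1.70, 1.5 to 1.93), Batf (1.41, 1.27 to 1.57), Irf4 (1.41, 1.14 to 1.75) and Bhlhe40 (1.38, 1.32 to 1.44) were higher in 6 of 6 libraries, again 4 of 6 genes above 1 and 0 below, against 11.5% and 6.72%. The Irf4 interval reached 1 without library 1 (1.28, 0.999 to 1.63). Maf and Batf were thus above 1 in both Il13+ and Ccr8+ cells, while the Bhlhe40 ratio in Il13+ cells of library 6 was 0.778 (0.624 to 0.970). Myeloid list transcripts, of which Cst3 gave 2178 of 2415 UMIs over the pool, stood at 2.44 UMIs per 10,000 in Il13+ and 1.06 in Il13- cells. Without cells holding a marker of another cell type the ratios in Il13+ cells were 1.75 (1.30 to 2.35) for Maf, 2.48 (2.08 to 2.95) for Batf, 1.54 (0.829 to 2.86) for Prdm1 and 1.04 (0.930 to 1.16) for Bhlhe40.

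In the cytotoxic and type 1 splits Maf lay on the other side of 1. Between CD8 and CD4 Tconv cells the ratio was 0.175 for Maf, 3.91 for Gzmb, 1.19 for Ifng and 0.0484 for Il13. The part of lineage in the Maf ratios of the cytokine and effector splits was not tested. In the 3010 Ifng+ cells, Irf4 had a ratio of 1.34 (1.17 to 1.55) and was higher in 6 of 6 libraries, Bhlhe40 stood at 1.28 (1.24 to 1.32), Tox at 1.21 (1.02 to 1.43) and Batf at 1.12 (1.05 to 1.20), while Maf stood at 0.806 (0.734 to 0.885). In the 2826 cells with Gzmb, which encodes granzyme B, Prdm1 had a ratio of 1.45 (1.20 to 1.76), Tox 1.37 (1.14 to 1.64) and Bhlhe40 1.10 (1.06 to 1.13), each higher in 5 of 5 libraries, while Maf stood at 0.673 (0.611 to 0.741) but was lower in only 3 of 5. The 4 and 3 genes above 1 compare with 13.6% and 15.6% of genes, and the 1 gene below in each with 7.4% and 8.84%. In Ifng+ cells the Tox interval included 1 without library 1, 2 or 3 (1.17, 1.17 and 1.14) and that of Batf without library 5 (1.06). NK cell markers stood at 0.366 UMIs per 10,000 in Ifng+ and 0.181 in Ifng- cells, and at 0.455 in Gzmb+ and 0.126 in Gzmb- cells. Without cells holding a marker of another cell type, the intervals of Maf (0.901, 0.804 to 1.01) and Tox (1.09, 0.870 to 1.36) in Ifng+ cells included 1, while in Gzmb+ cells Maf stood at 0.687 (0.609 to 0.776), Prdm1 at 1.56 (1.22 to 1.99) and Tox at 1.57 (1.25 to 1.99). The Tox ratios rested on matching by library, since without strata they were 0.928 in Ifng+ and 0.891 in Gzmb+ cells.

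Cells were also split by the checkpoint receptor transcripts Lag3 and Havcr2, and the difference between these splits was not tested. In the 480 Lag3+ cells Tox had a ratio of 2.17 (1.72 to 2.72) and Maf 0.822 (0.689 to 0.982), and the other 4 genes had intervals that included 1. In the 684 cells with Havcr2, which encodes TIM-3, Batf (1.31, 1.19 to 1.44) and Bhlhe40 (1.18, 1.14 to 1.24) lay above 1 and Tox did not (1.20, 0.920 to 1.57). The 1 and 2 genes above 1 compare with 8.08% and 11.7% of genes, and the 1 and 0 below with 5.22% and 4.75%. The Maf interval in Lag3+ cells included 1 without library 1 (0.888), 4 (0.839) or 6 (0.874). The Tox ratio in Lag3+ cells lay between 1.73 and 3.21 over 13 other settings.

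**Figure D5:**
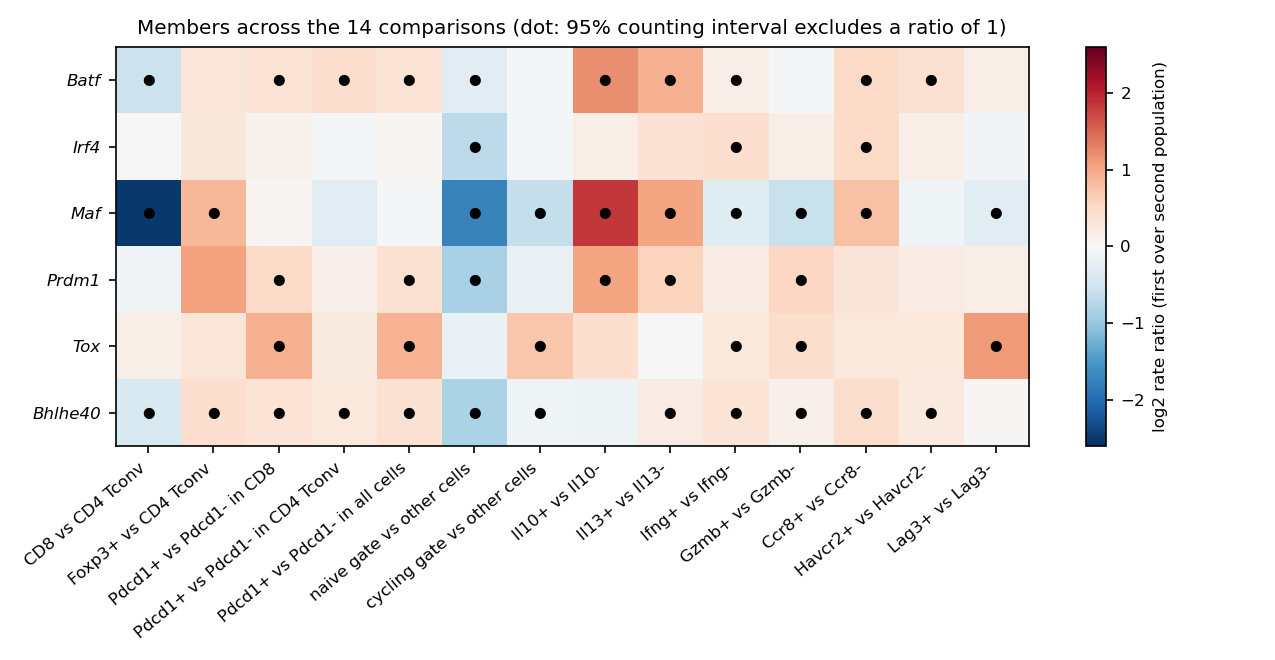
Log2 rate ratio (color) of each gene (rows) in the 14 comparisons (columns), first population over second, matched by library and depth quartile. Dots mark ratios whose 95% counting interval excludes 1. The highest and lowest values are those of Maf, at 1.83 in Il10+ and -2.51 in CD8 against CD4 Tconv cells. The highest values of Tox are 1.12 in Lag3+ and 0.92 in Pdcd1+ CD8 cells.

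Members were detected together in the same cells more often than their frequencies within library and depth strata gave for 7 of the 15 pairs, and less often for 0. The share over pairs of other genes was not computed, so whether this count is particular to the 6 genes was not tested. Batf and Tox were found together in 183 cells against 137 expected (ratio 1.33, 1.15 to 1.54), Batf and Irf4 in 266 against 205 (1.30, 1.15 to 1.47), Irf4 and Bhlhe40 in 517 against 440 (1.18, 1.08 to 1.28) and Tox and Bhlhe40 in 350 against 299 (1.17, 1.05 to 1.30). Maf and Bhlhe40 (1.13), Batf and Bhlhe40 (1.12) and Batf and Maf (1.11) completed the 7. Irf4 and Tox were found together in 46 cells against 46.0 expected. The interval included the expected number for Batf and Maf without library 1 or 3, and for Tox and Bhlhe40 without library 3 (1.12, 0.995 to 1.25). It also did for Batf and Maf with depth deciles in place of quartiles (1.08). With strata of library alone the number of pairs above expectation was 13. In all, 45.6% of cells held no UMI of the 6 genes, at a median depth of 920 UMIs, and the 20 cells with 5 of them had 4781.5.

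The genes most like each member were ranked by their ratio in member-positive against member-negative cells, as a description. Cells were matched by library and depth and not by lineage. Maf+ cells had the highest ratios for Areg (3.30, 3.06 to 3.57), encoding amphiregulin, Tox2 (3.24) and Izumo1r (2.85), encoding folate receptor 4, and the lowest for Klra7 (0.120) and Klrb1c (0.207), which encode NK cell receptors, and Tmem108 (0.240). Among the listed effector products Maf+ cells had more Il13 (2.96) and Il4 (2.88) and less Gzma (0.395), Ccl5 (0.542) and Gzmk (0.550), and Gata3, the type 2 lineage factor, stood at 1.89. These genes also differed between CD8 and CD4 Tconv cells. There the ratios were 0.0484 for Il13, 0.127 for Il4, 12.3 for Gzma, 7.56 for Ccl5, 5.41 for Gzmk and 0.299 for Gata3. The part of lineage in the Maf+ profile was not tested.

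Tox+ cells had another profile. The top genes were 4833407H14Rik (2.68), Nrn1 (2.62) and Rassf7 (2.52), and the lowest Lmo4 (0.343), Tmem176b (0.355) and Ecm1 (0.377). Of 10 checkpoint receptors and exhaustion markers, 3 were at least 1.5-fold higher and 0 lower: Lag3 (2.28, 1.82 to 2.86), Rgs16 (2.19) and Cd200 (1.92). The list median was 0.49 on the log2 scale against 0.06 for all genes. Csf2, encoding GM-CSF, was lower in Tox+ cells (0.404, 0.298 to 0.548) and in Prdm1+ cells (0.334, 0.249 to 0.447), while it was higher in Batf+ (2.65, 2.35 to 2.99) and Bhlhe40+ cells (2.79, 2.27 to 3.44). Of the 14 effector products of its list, 7 lay above 1 and 2 below in Tox+ cells, and 9 above and 1 below in Prdm1+ cells. In Batf+ cells 5 lay above and 6 below, and in Bhlhe40+ cells 4 and 4.

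Batf+ cells were led by Dusp14 (3.22), Ikzf4 (3.16), which encodes the Ikaros family factor Eos, and Ofd1 (2.47), with Tsc22d1 (0.302), Ranbp6 (0.331) and Pou6f1 (0.344) lowest. Irf4+ cells were led by Ikzf4 (2.62), Nmral1 (2.01) and Bcl6 (1.98), with Tmem63a (0.337) and Ddhd1 (0.353) among the lowest, and had more Il4 (2.51, 2.20 to 2.86). Prdm1+ cells were led by Cysltr2 (2.50), Klhl11 (2.15) and Cd81 (2.13), with Hspb1 (0.182) and Dapl1 (0.238) lowest beside Csf2. Bhlhe40+ cells were led by Tff1 (8.52, 3.74 to 19.4), Cd70 (7.91, 3.86 to 16.2), a ligand of the TNF family, and Dusp14 (4.23), with Igfbp4 (0.142), Hspb1 (0.275) and Pdlim4 (0.306) lowest. Igfbp4 is also a gene of the naive gate. In Bhlhe40+ cells 5 of 10 stem and naive factors were at least 1.5-fold lower and 0 higher, with a median of -0.44 on the log2 scale against 0.05 for all genes, and Nr4a3 (2.53), Rora (2.28) and Tnfrsf9 (2.21) were higher. The share of genes at least 1.5-fold higher with an interval above 1 was 1.22% for Batf, 1.92% for Irf4, 3.51% for Maf, 3.33% for Prdm1, 3.56% for Tox and 4.28% for Bhlhe40, and the share at least 1.5-fold lower was 1.05%, 1.15%, 2.25%, 1.05%, 1.23% and 1.81% in this order.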

How the data were processed

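TCRβ+ T cells were profiled by droplet single-cell RNA sequencing with 10x Chromium 5′ chemistry. By the study's methods the authors mapped reads to mm10, merged libraries in Cell Ranger and filtered cells in Seurat. The submitters' processing notes also name mm9, with no role. The deposited values are raw UMI counts per gene and cell. The annotation used for counting is not given in the sources used here. The 6 members and all lists and gates were chosen with earlier results of these data known.

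All cells and genes were used, with no doublet caller. Mantel-Haenszel rate ratios were computed over library and quartile of total UMIs within library, for genes with at least 100 UMIs (members at any count), in Python 3.11.15 with numpy 2.4.6, scipy 1.17.1 and pandas 2.3.3, and tested on simulated data. The simulated counts were Poisson draws, the model that the intervals assume. They could not show how the intervals hold where UMIs are concentrated in few cells. Libraries are 1 pool, so no p-value was computed. Shares have exact Clopper-Pearson 95% intervals. For ratios past each member, the 3 highest and 3 lowest genes on the same side of 1 in every library with at least 20 positive cells are named, other than mitochondrial, ribosomal and receptor segment genes, with at least 20 UMIs found or expected. Some genes that these rules and gates use are not reported here. Alternatives were other strata, thinning to 1000 or 500 UMIs, leaving out each library, the deepest 10% of cells or cells with a marker of another cell type, and, chosen after the data had been seen, leaving out shared barcodes.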

Additional observations from a re-analysis of the deposited data

How the results depend on the processing

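Of 1284 single ratios and folds recomputed under other settings, 1135 stayed close to the main value, 141 moved and 8 turned direction. Leaving out cells with shared barcodes, an alternative chosen after the data had been seen, moved no count of members by over 1.5 times. The ratios counted as turned were, without strata, Bhlhe40 in Foxp3+ cells (0.793) and in cycling cells (1.19) and Tox in Ifng+ (0.928) and Gzmb+ cells (0.891). Thinned to 1000 UMIs, Prdm1 turned in Pdcd1+ CD8 cells (0.737), in all Pdcd1+ cells (0.946) and in Il10+ cells (0.882). Leaving out each library gave Prdm1 0.999 (without library 4) to 1.63 in Il13+ cells. The number of members above 1 went from 0 to 1 in CD8 against CD4 Tconv cells, from 2 to 1 in Foxp3+ cells and from 1 to 0 in cycling cells without cells holding a marker of another cell type, and to 2 in cycling cells without strata. In Pdcd1+ CD4 Tconv cells it went from 2 to 0 when thinned and to 1 with at least 2 Pdcd1 UMIs, and members below 1 in the naive gate went from 5 to 3 when thinned. Pairs of members above expectation went from 7 to 13 with strata of library only, and pairs of a gene and a member at least 1.5-fold higher from 1562 to 2359 at 20 UMIs. The causes were not tested. Leaving out each library gave 3 to 4 members above 1 in Pdcd1+ CD8 cells, 1 to 2 in Pdcd1+ CD4 Tconv cells (1 without library 4), 2 to 3 in Foxp3+ cells, 18 to 22 of the member and gate pairs of the cytokine splits (21 with all libraries) and 5 to 8 pairs detected together. Gates were set anew on the thinned counts. Thinned cells number 304 in the Pdcd1+ CD8 gate and 48 in the Pdcd1+ CD4 Tconv gate, which limits what can be seen there. No paired analysis was possible because the library numbers carry no link to the numbered PBS and DTx samples and no test was made.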
